A study of Homo sapiens with 6 samples.

Results

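The SLC1 family genes SLC1A1, SLC1A2, SLC1A3, SLC1A4 and SLC1A5 were compared between NOZ, an established human gallbladder cancer line, and NOZ-R, the gemcitabine-resistant line made from it by stepwise escalation of the dose. There were 3 libraries per line, made from poly-A selected RNA, and the labels do not say whether gemcitabine was present when RNA was taken or whether NOZ-R is a clone. The 5 genes are listed members among the 63140 genes of the deposited count table. They were chosen because SLC1A1 and SLC1A3 moved in opposite directions between these same libraries, so the difference of every member between the lines is given here as a description, with no test. The labels do not state that the replicates were separate cultures, so p-values for other genes rest on the spread among these libraries alone, and that spread may be technical. In such bulk RNA, fewer cells that carry a transcript and less of it per cell cannot be told apart.

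SLC1 proteins are trimeric plasma membrane carriers with a shared fold that moves substrate by an elevator mechanism. SLC1A1, SLC1A2 and SLC1A3 (EAAT3, EAAT2 and EAAT1) import glutamate and aspartate together with sodium ions and a proton and send potassium out, which lets them concentrate acidic amino acids strongly. SLC1A4 and SLC1A5 (ASCT1 and ASCT2) are sodium-dependent exchangers of neutral amino acids such as alanine, serine and cysteine, and SLC1A5 also takes glutamine. SLC1A5 is widely studied in tumours as a glutamine carrier, SLC1A1 is the form usual in neurons and epithelia, and SLC1A2 and SLC1A3 are best known from astrocytes.

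The members lie on separate chromosomes in GRCh38 (GENCODE 29). SLC1A1 (ENSG00000106688.11) is on chromosome 9, 4490444 to 4587469, and SLC1A2 (ENSG00000110436.12) on chromosome 11, 35251205 to 35420063. SLC1A3 (ENSG00000079215.13) is on chromosome 5, 36606355 to 36688334, SLC1A4 (ENSG00000115902.10) on chromosome 2, 64988477 to 65023865, and SLC1A5 (ENSG00000105281.12) on chromosome 19, 46774883 to 46788594. RefSeq start windows of 300 bases (250 before the start, GRCh38.p14) were found for 4 of the members, 9 windows in all. The 5 windows shown belong to the members whose transcripts differed between the lines. They were picked to show the core of the C/EBP-ATF response element, the site bound by ATF4 with a C/EBP partner. All windows with the core are shown, and the SLC1A3, SLC1A4 and SLC1A5 windows left out hold none. Capitals mark that core.
SLC1A1, single listed start, chr9:4490218-4490517, plus strand: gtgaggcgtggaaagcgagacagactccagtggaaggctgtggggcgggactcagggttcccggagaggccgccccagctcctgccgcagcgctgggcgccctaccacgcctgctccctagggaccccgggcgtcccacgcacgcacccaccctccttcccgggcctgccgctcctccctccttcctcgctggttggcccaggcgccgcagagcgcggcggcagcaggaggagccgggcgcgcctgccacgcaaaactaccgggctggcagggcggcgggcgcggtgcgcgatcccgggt
SLC1A3, upstream start, chr5:36596338-36596637, plus strand: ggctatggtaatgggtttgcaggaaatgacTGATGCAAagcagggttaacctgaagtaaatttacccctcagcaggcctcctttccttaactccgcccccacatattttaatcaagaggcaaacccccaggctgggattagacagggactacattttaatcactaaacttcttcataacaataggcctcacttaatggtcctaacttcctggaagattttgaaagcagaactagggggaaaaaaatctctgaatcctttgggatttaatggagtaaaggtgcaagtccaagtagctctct
SLC1A3, middle start, chr5:36606356-36606655, plus strand: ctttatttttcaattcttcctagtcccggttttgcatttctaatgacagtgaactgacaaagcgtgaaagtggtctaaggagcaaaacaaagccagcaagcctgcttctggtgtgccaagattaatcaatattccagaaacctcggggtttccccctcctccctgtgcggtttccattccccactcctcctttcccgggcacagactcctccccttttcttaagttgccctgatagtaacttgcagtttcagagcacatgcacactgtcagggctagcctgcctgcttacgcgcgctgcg
SLC1A4, downstream start, chr2:64989149-64989448, plus strand: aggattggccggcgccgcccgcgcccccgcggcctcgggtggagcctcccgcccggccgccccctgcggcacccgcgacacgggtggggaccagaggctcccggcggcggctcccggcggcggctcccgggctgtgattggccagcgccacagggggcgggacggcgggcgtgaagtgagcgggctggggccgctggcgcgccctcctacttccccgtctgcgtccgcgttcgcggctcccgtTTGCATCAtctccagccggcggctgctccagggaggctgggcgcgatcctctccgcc
SLC1A5, internal start, chr19:46784765-46785064, minus strand: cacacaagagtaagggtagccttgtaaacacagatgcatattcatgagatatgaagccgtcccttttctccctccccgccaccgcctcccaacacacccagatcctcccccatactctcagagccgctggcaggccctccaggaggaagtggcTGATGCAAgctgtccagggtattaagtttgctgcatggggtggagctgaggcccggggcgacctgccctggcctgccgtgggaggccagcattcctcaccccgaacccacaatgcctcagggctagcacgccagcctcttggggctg

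The core was searched as TGATGNAA on both strands and stands in 3 of the 9 windows, against 3.62% of all 35116 windows of this length. Per gene, 4.46% of all genes had it in at least 1 window, and a gene with several windows has more places for a match. Whether ATF4 acted on these starts was not tested. In SLC1A4 the match TTGCATCA, on the other strand, begins 7 bases before the downstream start. In SLC1A5 the match TGATGCAA begins 97 bases before an internal start, and in SLC1A3 the same letters begin 220 bases before the upstream start. The SLC1A1 window holds no match and is rich in CpG, with 33 CpG dinucleotides, more than 82.8% of all windows. The SLC1A3 windows hold 1, 9 and 10, where the median window holds 14. Other letters searched were CACGTG, the E-box bound by MYC (in 7.26% of windows), which occurs in 1 SLC1A5 window, and TGACNNNGC, an antioxidant response element core (in 13.3%), which occurs in 1 SLC1A3 window and 1 SLC1A5 window. Counts per gene do not tell which start was used, and a match is not evidence that a factor bound.

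The libraries held 14136037 to 19244923 counts, with r of 0.994 to 0.997 between replicates and 0.944 to 0.948 between the lines in log2(CPM + 1). NOZ replicate 2 stood apart from the other NOZ replicates, with a mean chi-square per gene of 9.83 to 11.2 against them, where the other replicate pairs of either line gave 2.19 to 4.1. Of 9 epithelial markers 8 could be tested, with 3 higher, 3 lower and 2 not called, beside 30.4% higher and 29.8% lower among all tested genes. The summed level of the list was 2672 to 3149 CPM in the NOZ libraries against 3525 to 3611 for NOZ-R. The keratin KRT19 averaged 925 CPM ± 117 in the parental line and 889 ± 9.03 in the resistant line (SD, n = 3 each), and did not pass. The keratins KRT7, KRT18 and KRT8 rose by 1.08, 0.64 and 0.25 on the log2 scale, while EPCAM fell by 0.56, CLDN4, a claudin, by 0.92, and CDH1, E-cadherin, from 55 to 14 counts. Of the 5 members, 4 passed the filter on low counts and SLC1A2 did not. SLC1A3 passed only through its counts in NOZ-R. The same holds for other genes named below, among them RANBP3L, AQP4, SYT1, LYZ and GRIN2A, while CDH1 passed only through NOZ. For such genes the filter favoured the direction seen.

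SLC1A1, the epithelial and neuronal glutamate carrier, was the most abundant member in NOZ and fell to a small part of that level in NOZ-R. Its level was 222, 239 and 220.2 CPM (counts scaled to the effective library size) in NOZ replicates 1 to 3 and 18.7, 22.1 and 20.8 CPM in NOZ-R replicates 1 to 3. The lowest NOZ library was thus far above the highest NOZ-R library, and the libraries within each line lay close together. The means were 227 CPM ± 10.2 and 20.5 CPM ± 1.76 (SD, n = 3 each), 11.1-fold lower in NOZ-R, with a log2 fold change of -3.47 ± 0.0761 (SE). Without NOZ replicate 2 the log2 fold change was -3.43. Of all tested genes, 0.313% had a decrease at least as large.

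SLC1A3, the glial glutamate carrier, showed the opposite pattern, from no read at all to a moderate level. No NOZ library had a count (0 in each), whereas NOZ-R replicates 1 to 3 had 858, 766 and 719. On the CPM scale these were 47.3, 47.4 and 48.1, a mean of 47.6 CPM ± 0.444 (SD, n = 3), so the NOZ-R libraries were almost level. Counting error for counts of this size is larger than that SD, which thus understates the uncertainty. Since a count of 0 allows up to 3 counts over the 3 NOZ libraries, or 0.0567 CPM, the SLC1A3 level of NOZ-R was at least 840.2-fold higher. The bound shrinks with fewer NOZ libraries, to 523.8 without NOZ replicate 1 and 553.1 without NOZ replicate 2. In NOZ-R the CPM of SLC1A3 exceeded that of SLC1A1 in every library.

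SLC1A2, the carrier that clears most glutamate in the forebrain, was close to absent from both lines. Counts were 0 in every NOZ library and 1, 5 and 1 in those of NOZ-R, a mean of 0.144 CPM ± 0.143 (SD, n = 3), and 5 of those 7 counts came from replicate 2. Without that library the mean was 0.0618 CPM, near the floor. The family genes outside the members, SLC1A6 and SLC1A7 (EAAT4 of the cerebellum and EAAT5 of the retina), had at most 1 and 5 counts in any library. Of the 5 glutamate carriers of the family, only SLC1A1 and SLC1A3 therefore had more than 5 counts in a library.

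The neutral amino acid exchangers were both higher in NOZ-R. In NOZ, SLC1A4 had 1.54, 1.49 and 1.62 CPM, from 31, 27 and 24 counts. In NOZ-R it had 9.93, 10.9 and 9.37 CPM, from 180, 177 and 140 counts. No NOZ library came near the lowest NOZ-R library. The means were 1.55 CPM ± 0.0651 and 10.1 CPM ± 0.797 (SD, n = 3 each), 6.49-fold higher, with a log2 fold change of 2.70 ± 0.161 (SE).

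SLC1A5, the glutamine carrier ASCT2, had the higher level of the pair in both lines and the smaller relative difference. NOZ replicates 1 to 3 gave 65.9, 59.4 and 69.4 CPM, and NOZ-R replicates 1 to 3 gave 175, 156 and 158. The lines did not overlap, although SLC1A5 varied more between replicates than SLC1A3. The means were 64.9 CPM ± 5.09 and 163 CPM ± 10.3 (SD, n = 3 each), 2.52-fold higher, with a log2 fold change of 1.33 ± 0.0726 (SE), or 1.27 without NOZ replicate 2. An increase at least this large was seen in 6.49% of tested genes, and one at least as large as that of SLC1A4 in 2.81%.

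All 4 tested members had CPM values that did not overlap between the lines, as did 65.3% of the 14386 tested genes, and all 4 passed the edgeR threshold, as did 60.2% (30.4% higher and 29.8% lower). Nothing is read from these member counts, because the members were chosen on this contrast. With library size as the sole scaling, the median of all genes moved by -0.13 on the log2 scale, the calls became 3318 higher and 5465 lower in place of 4379 and 4284, and no member changed direction.

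**Figure D1:**
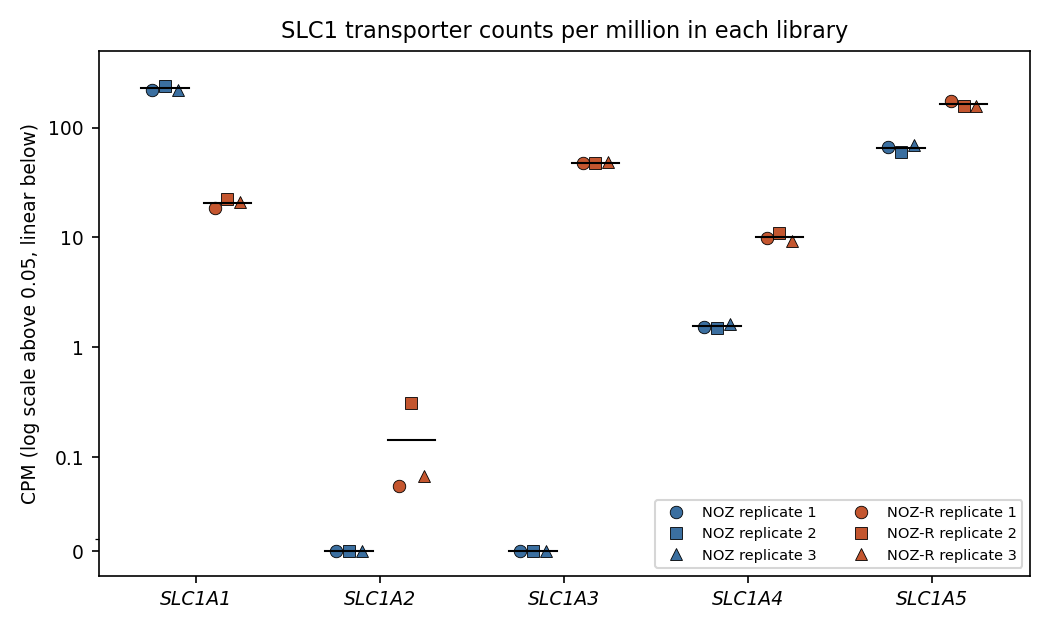
CPM (vertical axis, logarithmic above 0.05 and linear below) of the 5 SLC1 genes in the 3 NOZ (blue) and 3 NOZ-R (orange) libraries, with symbols for replicates and lines for means. SLC1A1 drops from 227 to 20.5 CPM on average, SLC1A3 goes from 0 to 47.6, and SLC1A4 and SLC1A5 are higher in every NOZ-R library.

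Levels of different genes were compared per length of transcript, in FPKM as deposited (counts divided by library total and by a fixed length for the gene). In NOZ the order was SLC1A1 at 59.7 FPKM ± 2.81, SLC1A5 at 20.1 ± 1.56 and SLC1A4 at 0.234 ± 0.00972, with SLC1A2 and SLC1A3 at 0 (SD, n = 3). In NOZ-R it was SLC1A5 at 46.3 FPKM ± 3.14, SLC1A1 at 4.94 ± 0.404, SLC1A3 at 2.14 ± 0.0172, SLC1A4 at 1.39 ± 0.109 and SLC1A2 at 0.00602 ± 0.00599. Each of these neighbours in the order differed by more than its SD. The order of SLC1A1 and SLC1A3 in NOZ-R depended on the length used, however. The deposited FPKM values imply a length of 21227 bases for SLC1A3. Its longest GENCODE 29 coding transcript has 4170 bases and all its exons merged have 6265. For SLC1A1 the implied length was 3974 bases, near the 3998 of its merged exons. The other members were near their merged exons too, so SLC1A3 alone departed. With the longest coding transcript of each gene, SLC1A3 stood at 10.9 FPKM ± 0.0876 and SLC1A1 at 5.27 ± 0.432 (SD, n = 3 each).

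The pool of SLC1 transcripts turned from mainly glutamate carriers to mainly neutral carriers. SLC1A1 to SLC1A3 together summed to 59.7 FPKM ± 2.81 in NOZ and 7.09 ± 0.404 in NOZ-R, while SLC1A4 and SLC1A5 summed to 20.4 ± 1.57 and 47.7 ± 3.12 (SD, n = 3 each). The neutral carriers thus made up 25.4% of the NOZ pool and 87.0% of the NOZ-R pool. With transcript lengths these shares were 27.3% and 77.6%, so the turn was present under both lengths. SLC1A5 alone held 25.2% ± 2.28 of the parental pool and 84.5% ± 1.52 of the resistant pool (SD, n = 3 each), or 26.9% and 74.7% with transcript lengths. The summed level of all 5 members was 80.1 FPKM ± 1.44 and 54.8 ± 2.74 (SD, n = 3 each), and 87.7 and 72.5 with transcript lengths. These are RNA levels per length, and protein at the cell surface was not measured here.

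**Figure D2:**
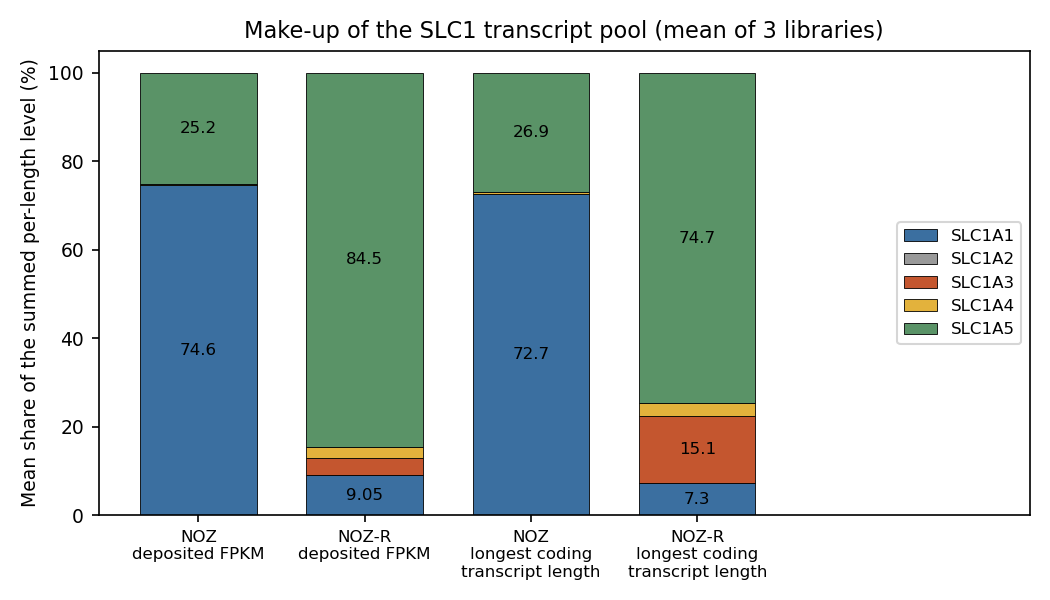
Mean share of each SLC1 gene in the summed per-length level (vertical axis, percent, mean of 3 libraries per line), with the deposited FPKM in the left pair of bars and with the longest coding transcript length in the right pair. SLC1A1 holds 74.6% of the pool in NOZ and 9.05% in NOZ-R, while SLC1A3 holds 3.92% or 15.1% in NOZ-R depending on the length.

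Genes near SLC1A1 on chromosome 9 were lower in NOZ-R as well, but by less. The nearest 3 tested genes on either side had log2 fold changes of -0.23 (GLIS3, a zinc finger factor), -1.39 (RFX3-DT), -1.25 (RFX3, a factor of ciliated cells), -1.18 (SPATA6L), -1.34 (PLPP6, a lipid phosphatase) and -0.88 (CDC37L1, a cochaperone), with edgeR adjusted p from 1.01e-07 to 0.0212. The call for GLIS3 was lost in 4 of 16 alternative settings. Within 2 Mb, 14 of 18 tested neighbours were lower and 3 higher, where 29.8% and 30.4% of all tested genes were. The median of these neighbours was -0.58, and the median of chromosome 9 was -0.64 over 555 genes. Relative to that chromosome median SLC1A1 was at -2.83 and GLIS3 at 0.40. The part of the chromosome-wide level in the SLC1A1 difference was not tested. SPATA6L overlaps the 3′ part of SLC1A1 on the opposite strand. The library protocol in the labels describes no step that marks strand, so reads in the overlap cannot be assigned with certainty. SPATA6L had 88 to 140 counts per NOZ library, where SLC1A1 had 3258 to 4452, and 44 to 48 per NOZ-R library, where SLC1A1 had 311 to 358. The part of such reads in the SLC1A1 counts was not tested.

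Around SLC1A3 the nearest tested genes went both ways. RANBP3L, a Ran binding protein gene, resembled SLC1A3 in being nearly silent in NOZ, with 1 count summed over NOZ and 106 summed over NOZ-R (edgeR adjusted p = 9.20e-07). NADK2, the mitochondrial NAD kinase, rose by 0.35 on the log2 scale, while SKP2, an F-box protein of the cell cycle, fell by 1.22, NIPBL-DT by 0.98, the cohesin loader NIPBL by 0.43 and CPLANE1 by 1.15 (edgeR adjusted p from 3.12e-09 to 0.00902). The call for NIPBL was lost without NOZ-R replicate 1, where its log2 fold change was -0.32 (edgeR adjusted p = 0.0569). SLC1A3-AS1, an annotated antisense gene that overlaps SLC1A3, had 6, 6 and 9 counts for NOZ and 10, 5 and 11 for NOZ-R. It runs on to 36725195, past the end of SLC1A3. The protocol describes no step that marks strand, so the strand of these few reads, and whether they lie in the overlap, are not known. The median of chromosome 5 was -0.05. Around SLC1A2 on chromosome 11, CD44, a hyaluronan receptor, rose by 0.50, FJX1 by 0.85 and TRIM44 by 0.27, LDLRAD3 fell by 0.62, and CD44-AS1 and CD44-DT did not pass (edgeR adjusted p = 0.399 and 0.193).

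SLC1A4 and SLC1A5 lie on chromosomes with medians of 0.18 and 0.07. Next to SLC1A4, LGALSL, a galectin-like gene, rose by 3.15 on the log2 scale and RAB1A, a GTPase of secretion, by 0.41, while CEP68 fell by 0.61, VDAC2P5 by 0.29 and SERTAD2 by 0.19 (edgeR adjusted p from 1.36e-08 to 0.0307). AFTPH was at 0.03 and did not pass (edgeR adjusted p = 0.809). The calls for VDAC2P5 and SERTAD2 were lost in 5 and 2 of 16 settings.

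Annotated genes on the opposite strand overlap parts of SLC1A5, and reads there cannot be assigned with certainty. Of the genes nearest to it, STRN4, PRKD2, AP2S1 and ARHGAP35 rose by 0.24, 0.30, 0.27 and 0.30 (edgeR adjusted p from 0.000290 to 0.0135), and NPAS1 did not pass (log2 fold change 0.47, edgeR adjusted p = 0.229). The calls for STRN4, PRKD2 and AP2S1 were lost in 5, 3 and 5 of 16 settings, among them library size as the sole scaling.

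**Figure D3:**
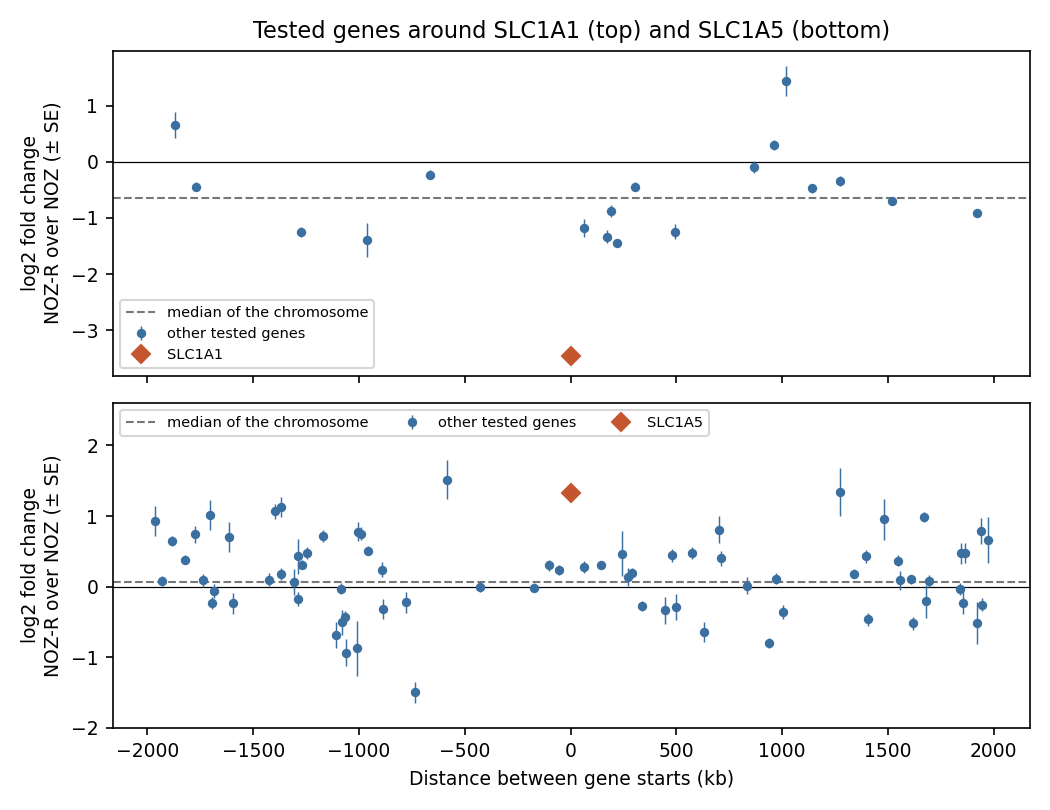
Log2 fold change of NOZ-R over NOZ (vertical axis, bars are SE) for tested genes reported here within 2 Mb of SLC1A1 (top) and SLC1A5 (bottom), by distance between gene starts in kb, with the chromosome median as a dashed line. SLC1A1 at -3.47 lies below all 18 of its tested neighbours. SLC1A5 at 1.33 lies above its chromosome median of 0.07 but not above all its neighbours, of which IGFL2-AS1 is highest at 1.51.

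Genes with the most similar values over the 6 libraries were found by Euclidean distance in log2(CPM + 1) among 13375 tested genes with a symbol. With 3 libraries per line, this likeness rests mainly on the level in each line. Nearest to SLC1A1 were CEACAM5, the carcinoembryonic antigen gene (distance 0.40, from 210 CPM to 23.3 CPM), AK5, an adenylate kinase (1.19), and the calcium sensor NCS1 (1.80). Nearest to SLC1A3 were LDB2, a LIM domain binding cofactor (distance 0.05), with 0 counts in NOZ against 48.2 CPM ± 1.25 in NOZ-R (SD, n = 3), GJA1, connexin 43 (0.23, 1 count summed over NOZ against a mean of 51.9 CPM for NOZ-R), and the fatty acid carrier FABP4 (0.40, 8 counts and 48.8 CPM). The nearest genes to SLC1A4 were the CDP-diacylglycerol synthase CDS1 (0.40), DIPK1A (0.41) and PECAM1 (0.41), a gene known from endothelium. Those nearest to SLC1A5 were the dynactin subunit gene DCTN5 (0.30), the nuclear body gene PML (0.34) and the mechanosensitive channel gene PIEZO1 (0.36).

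Since SLC1A3 is a glial gene, markers of glia and neurons were read beside it. Of 8 astrocyte and glial markers, 3 could be tested, and AQP4, the astrocyte water channel, had 0 counts in NOZ against 5.42 CPM ± 1.15 in NOZ-R (SD, n = 3), at least 95.6-fold higher. GFAP, the intermediate filament of astrocytes, averaged 1.21 CPM ± 0.172 and 1.19 ± 0.274 in the parental and resistant line (SD, n = 3 each) and did not pass (edgeR adjusted p = 0.897). MBP, a myelin gene also transcribed elsewhere, fell by 0.32 (edgeR adjusted p = 0.00184). ALDH1L1, S100B and SOX10 had at most 6 counts in a library and GJB6 had 0. The list summed to 65.6 to 70.1 CPM per NOZ library and 54.1 to 63.8 per NOZ-R library, of which MBP gave a mean of 66.2 and 53.0 CPM. Without MBP, a sum formed after its level was seen, the other 7 genes summed to 1.15 to 1.55 CPM per NOZ library and 6.07 to 8.16 per NOZ-R library. Most of the difference in this sum was AQP4 alone, at 0 and a mean of 5.42 CPM, while GFAP was level. The sum therefore does not show a rise of the list as a group.

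Of 6 neuronal markers, 3 could be tested, with SYT1 higher and SYN1 lower, where 30.4% and 29.8% of all tested genes were. STMN2 and GAP43 had 0 counts in every library. The neuronal list summed to 7.71 to 9.62 CPM per NOZ library and 6.57 to 8.23 per NOZ-R library. Of 7 fibroblast markers, 2 could be tested and neither passed, with sums of 2.79 to 3.43 CPM per NOZ library and 3.83 to 5.02 per NOZ-R library. Among the untested members, the matrix proteoglycan genes DCN and LUM had 0 counts throughout NOZ but 37 and 25 counts summed over NOZ-R, and the receptor gene PDGFRA had 5 against 29. None of these 3 genes overlapped between the lines, and 65.3% of all tested genes did not either. COL1A1, a tested marker of this list, went the other way without overlap, from 138 to 88 counts (edgeR adjusted p = 0.0548). The 9 leukocyte and endothelial markers summed to 3.85 to 4.49 CPM per NOZ library and 10.6 to 11.5 per NOZ-R library. Both tested members were higher, PECAM1 with means of 1.86 and 9.20 CPM and the lysozyme gene LYZ with 21 and 56 counts (edgeR adjusted p = 3.01e-08 and 0.00411). LYZ, with 6 to 8 counts per NOZ library, passed the filter on low counts only through NOZ-R, so the filter favoured that direction. Of all tested genes, 30.4% were higher. Of the untested members, the leukocyte gene PTPRC had 49 counts in NOZ against 11 in NOZ-R, the endothelial cadherin CDH5 had 29 against 20, and VWF, KDR, CD3E and CD68 had at most 4 counts in a library. The part of other cells in the SLC1A3 level was not tested.

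The lists around the members held enzymes and carriers of glutamate and glutamine, glutamate receptors, sodium-potassium pump subunits, partner proteins and transcription factors, and genes in them moved in both directions. Over the lists together, 65 of 108 genes could be tested, of which 29 were higher, 18 lower and 18 did not pass (edgeR with Benjamini-Hochberg adjustment over all genes), so 72.3% were called against 60.2% of all tested genes. Their median log2 fold change was 0.11, against -0.01 for all tested genes. With library size as the sole scaling the split was 26 higher and 25 lower. The counts of each list below are to be read beside 30.4% higher and 29.8% lower among all tested genes.

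GLUD1, glutamate dehydrogenase, which oxidizes glutamate, fell by 0.64 on the log2 scale, and GLUL, glutamine synthetase, fell by 0.31 (edgeR adjusted p = 6.76e-07 and 0.000266). GLS2 and GLUD2 had at most 3 and 14 counts in a library, and reads of GLUD1 and its near-identical copy GLUD2 cannot be separated with certainty.

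Of 5 tested aminotransferases, GOT1, GOT2 and GPT2, which pass nitrogen between glutamate and aspartate or alanine, were lower by 0.52, 0.23 and 0.51 on the log2 scale. PSAT1, of serine synthesis, rose by 0.65 and BCAT2 did not pass (log2 fold change -0.17). The mitochondrial glutamate carrier gene SLC25A22 rose by 0.69. Of the aspartate-glutamate exchangers, SLC25A12 rose by 0.29 and SLC25A13 fell by 0.25. SLC25A12 no longer passed in 3 of 16 settings, among them library size as the sole scaling (edgeR adjusted p = 0.0801). SLC25A13 no longer passed in 1 of 16, without NOZ replicate 1 (edgeR adjusted p = 0.0537). GLUD1, GOT1, ALDH18A1 and OAT all lie on chromosome 10, whose median was -0.60, and relative to it they stood at -0.04, 0.08, -0.29 and -0.05.

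Among 9 enzymes that spend glutamine nitrogen, 4 were higher and 1 lower, where 30.4% and 29.8% of all tested genes were. The number lower was 3 with library size as the sole scaling and with limma on the FPKM values, and 2 without NOZ replicate 2. GFPT2, of the hexosamine pathway, rose by 1.13 and PFAS, of purine synthesis, by 0.45, while the CTP synthase CTPS2 fell by 1.80. The asparagine synthetase gene ASNS was nearly silent, with 14 to 17 counts per library in NOZ and 5 to 16 in NOZ-R, and did not pass (edgeR adjusted p = 0.394). Of 14 tested enzymes of pathways linked to glutamate or aspartate, 8 were higher and 3 lower, beside the same shares of all tested genes. Not all of these enzymes consume glutamate or aspartate, so the counts are not a reading of their use. ASS1, which joins aspartate to citrulline, had 0.994 CPM ± 0.114 in NOZ against 4.97 ± 0.975 in NOZ-R (SD, n = 3 each; edgeR adjusted p = 1.40e-06), and CHAC1, which degrades glutathione, rose by 1.79. ALDH18A1, which starts proline synthesis from glutamate, fell by 0.89 and OAT, ornithine aminotransferase, by 0.65.

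Of 9 other tested carriers of glutamine, neutral amino acids and cystine, 3 were higher, 3 lower and 3 did not pass. SLC7A5, the LAT1 exchanger that trades internal glutamine for leucine, averaged 122 CPM ± 9.91 in NOZ against 407 ± 3.09 in NOZ-R (SD, n = 3 each). The log2 increase was 1.73 ± 0.0623 (SE), with an edgeR adjusted p of 5.09e-11. Its partner chain SLC3A2 rose from 114 to 228 CPM and SLC7A6, a related exchanger, by 1.14. SLC7A11, which exports glutamate in exchange for cystine, fell by 0.49, and the system A carriers SLC38A4 and SLC38A2 fell by 2.23 and 0.25.

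Of 26 glutamate receptor genes, 4 passed the filter on low counts. GRIN2D, an NMDA receptor subunit, fell by 0.52 (log2; edgeR adjusted p = 0.000139). GRIN2A rose from 22 to 66 counts over the libraries (edgeR adjusted p = 0.00409), and GRIN3A fell by 0.91 (edgeR adjusted p = 0.0442). GRIN2A was the single receptor called higher, and none (0) was with limma on log2(FPKM + 1) or with a filter of 1 CPM in 3 libraries. Without NOZ replicate 1, 2 receptors were called higher. In 9 of 15 settings GRIN3A no longer passed, among them without NOZ replicate 2 or 3 and without NOZ-R replicate 1 or 2 (edgeR adjusted p from 0.113 to 0.158). The vesicular glutamate carriers had at most 11 counts in a library. Of 7 subunits of the sodium-potassium pump, which maintains the ion gradients these carriers use, 3 could be tested. All 3 were higher, among them ATP1B1 at 0.56 and ATP1B3 at 0.41, where 30.4% of all tested genes were higher.

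Of 7 reported partner proteins, 1 was higher and 3 lower, or 5 lower with library size as the sole scaling and with limma on the FPKM values. NHERF2, a PDZ scaffold, rose by 0.87, while its relative NHERF1, which binds SLC1A3, fell by 0.42. ARL6IP5, an inhibitor of SLC1A1, fell by 0.16. Of 6 transcription factors reported to act on SLC1 genes, 5 were higher, where 30.4% of all tested genes were. Whether any of them acted on the members was not tested. ATF4, the effector of the integrated stress response, averaged 152 CPM ± 8.17 in NOZ against 332 ± 4.86 in NOZ-R (SD, n = 3 each). The log2 increase was 1.13 ± 0.0561 (SE), with an edgeR adjusted p of 1.27e-09. NFE2L2 rose by 0.84, NFKB1 by 0.50, MYC by 0.49 and YY1 by 0.24, and RELA did not pass (log2 fold change 0.09).

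**Figure D4:**
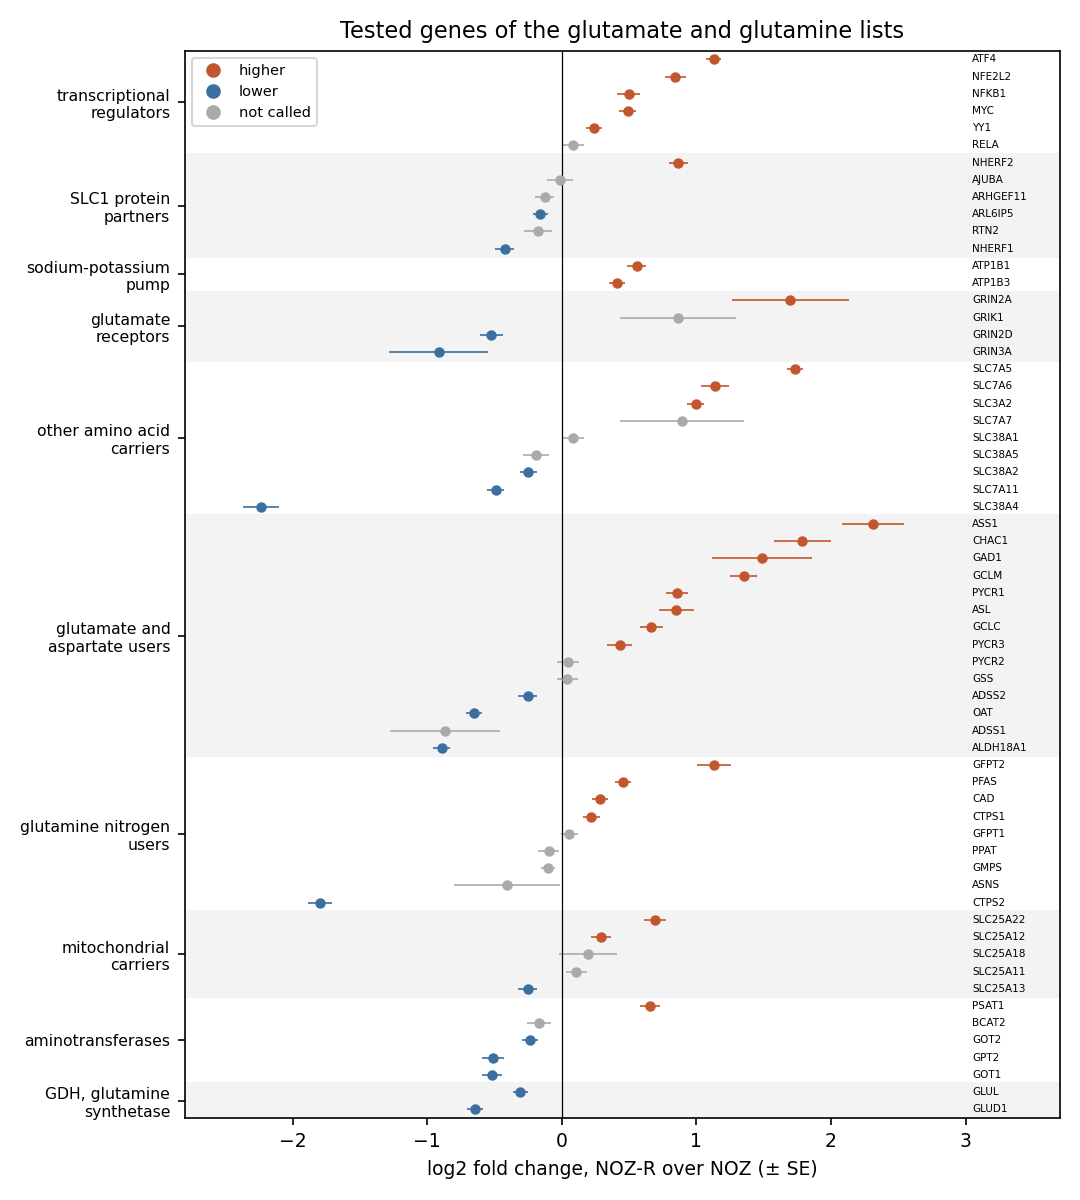
Log2 fold change of NOZ-R over NOZ (horizontal axis, bars are SE) for tested genes of the glutamate and glutamine lists that are reported here, coloured by the edgeR call at an adjusted p of 0.05. SLC7A5, SLC3A2 and ATF4 lie to the right, and SLC38A4, CTPS2, GLUD1 and GOT1 to the left. The group labelled glutamate and aspartate users holds enzymes of linked pathways, not all of which consume these amino acids.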

How the data were processed

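The authors deposited whole-number counts per gene, not normalized, plus a table of FPKM. The submitters' processing notes list fastp 0.22.0 and GRCh38. Which aligner, counter, strand setting and annotation were used is not given in the sources used here. Each deposited FPKM is the count divided by the library total and a fixed length per gene, with no composition correction.

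Counts were analysed with edgeR 4.0.16 (R 4.3.3): filterByExpr, TMM factors (0.954 to 1.05), quasi-likelihood test, Benjamini-Hochberg adjustment at 0.05 over 14386 genes. CPM use TMM-scaled library sizes. The SE is the log2 fold change divided by the square root of F. The script was tested on simulated counts. Floors of 3 counts reflect counting error alone, because PCR duplicates carried no identifiers. Alternatives used limma 3.58.1 on log2(FPKM + 1) and log2(FPKM + 0.1) and DESeq2 1.42.0. Python 3.11.15, pandas 2.3.3 and matplotlib 3.10.9 were used for annotation and plots. Promoter windows are from RefSeq.

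The members and lists were chosen with earlier results of these data known. Besides the members, the text names a fixed set of glutamate genes, up to 2 increases and 2 decreases per list among called genes with at least 1 CPM, the nearest 3 tested genes on each side of a member, and the 3 nearest in pattern. GLS2, GLUD2, BCAT2, ASNS, SLC38A2, GRIN2A, ATP1B3, ARL6IP5, NFKB1, YY1, RELA and the markers shown were named after their values were seen. Some genes that the rule names are not reported here, singly or in the plots, but stay in the counts and medians of the lists.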

Additional observations from a re-analysis of the deposited data

How the results depend on the processing

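The members kept their direction in every alternative that gave a value. For SLC1A1 the log2 fold change of -3.47 became -3.60 with library size alone, -3.35 and -3.57 with limma on log2(FPKM + 1) and log2(FPKM + 0.1), and -2.83 with the chromosome median removed. For SLC1A4 the value of 2.70 became 2.57, 0.95, 2.15 and 2.52 in the same settings, and for SLC1A5 the value of 1.33 became 1.20, 1.16 and 1.20 in the first 3. The larger pseudocount understates the change of SLC1A4 by construction. The SLC1A3 bound of 840.2-fold became 832.0 with upper-quartile factors, 768.5 with library size alone and 868.6 with the chromosome median removed, and leaving out a library gave 523.8 to 845.3, the lowest because fewer NOZ libraries raise the floor. With the longest coding transcript as the length, chosen after seeing the data, the shares in NOZ-R became 7.30% (SLC1A1), 15.1% (SLC1A3), 2.92% (SLC1A4) and 74.7% (SLC1A5), and that of SLC1A4 in NOZ became 0.406%. Leaving out a library gave a log2 fold change of -3.52 to -3.40 for SLC1A1, 2.64 to 2.75 for SLC1A4 and 1.27 to 1.39 for SLC1A5. It gave 29 to 30 list genes higher and 16 to 20 lower.

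The replicate number as a block gave 4324 higher and 4180 lower genes, 29 and 17 in the lists, and ended the call of GRIN3A (edgeR adjusted p = 0.0502) and of no other gene named by the rule. Same-numbered libraries of the lines did not deviate together (r of 0.35, -0.0566 and -0.291 for numbers 1 to 3), and not every library correlated best with its own number, so the numbers were not taken as pairs. The chromosome median removed turned the sign of GOT1 (0.083), SLC25A13 (0.044) and GLIS3 (0.40). It moved GLUD1 to -0.04, OAT to -0.05 and ALDH18A1 to -0.29. Of 74 single genes, the settings with a test ended a call in 38 cases and left it as it was in 1144. The block, the limma fits and the threshold give no bound for SLC1A3, and no fold was formed for SLC1A2, whose 7 counts over NOZ-R set the limit of depth here.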
